A study of Mus musculus with 10 samples.

Results

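The kallikrein-related peptidases of the epidermis are secreted serine proteases, and the 10 genes described here are Klk5, Klk6, Klk7, Klk8, Klk9, Klk10, Klk11, Klk12, Klk13 and Klk14. They were taken by symbol from tables of 23282 gene entries, and all 10 were found. The samples were whole skin of C57BL/6 mice aged 5 months: 5 libraries carry the label STAT3cKO, for the keratinocyte-specific ablation of STAT3, and 5 carry the label WT. The promoter behind the ablation, the deleted exons and the sex of the mice are unknown from the sources at hand. The study's title names SPINK5 and KLK5 as genes that STAT3 acts on, so each kallikrein was compared between the genotypes both as a level and as a ratio to Spink5. No label says that the libraries came from separate mice, so p-values measure only the spread between these libraries.

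Cells of the upper epidermis secrete kallikreins as inactive precursors, and other proteases, kallikreins among them, cut off the propeptide. Active KLK5 and KLK7 cut the corneodesmosomes that hold cornified cells together, which lets the skin shed its surface. The Spink5 product LEKTI, a multidomain inhibitor, restrains them, and its loss causes Netherton syndrome in humans.

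Values are the deposited ones, which behave as log2 of scaled reads plus a pseudocount of 1, and changes are STAT3cKO minus WT on that scale. The fit with limma covered the 11536 genes that reached a value of 5 in 5 or more libraries, and a gene was said to rise or fall when its Benjamini-Hochberg adjusted p over all of these was under 0.05. The kit reads the 3′ end of transcripts, so a level follows the number of transcripts and needs no correction for length. In whole skin, fewer cells of a type and less RNA per cell cannot be told apart.

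The estimated depth was 7490000 to 18700000 reads in STAT3cKO libraries and 7190000 to 16700000 in WT libraries. STAT3cKO 2 lacked any read for 2617 of the tested genes and WT 3 for 1273, against 83 to 1097 in the other 8 libraries. Stat3 itself had values of 9.49 to 10.81 in STAT3cKO and 9.08 to 10.29 in WT (change 0.41, SE 0.36, limma adjusted p = 0.7). Whole skin contains cells that the ablation spares, and 3′ reads may lie outside the deleted part, so the Stat3 level is no check of the labels. In all, 61 genes rose and 53 fell, and the median change of all tested genes was −0.16.

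One feature of the tables bears on Klk5. The entries stand in genome order, and of 22157 that could be placed on the annotation 94 (0.424%) stood elsewhere. Of the 94, 61 have their own place held by another of the 94. The entry named Klk5 is one of the 94: it stands among genes of chromosome 11, between Clk4 and Phykpl. By the annotation that is the place of Col23a1, whose entry is displaced too. The place of Klk5 on chromosome 7, between Klk6 and Klk4, is held by an entry named Creb3l1. The other 9 kallikreins and Spink5 stand where the annotation puts them. The deposited symbols are used throughout, and the entry at the Klk5 place is given beside Klk5.

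Whether symbols or places should be followed was examined with 14 pairs of entries, chosen after their values were seen, over deviations from the group means in the 10 libraries. The displaced entry named Krt10 varied with Krt1, its partner keratin (Pearson r = 0.76, Spearman rho = 0.72, exact within-group permutation p = 0.00993, adjusted p = 0.0695, r = 0.60 without the 2 farthest libraries). The entry that stands at the Krt10 place, Hrnr, had r = 0.36 with Krt1 (rho = 0.31, exact permutation p = 0.317). The mast cell protease Cpa3, likewise displaced, had r = 0.78 with Cma1 (rho = 0.75, exact permutation p = 0.00549, adjusted p = 0.0695). Lamc1, which stands at the Cpa3 place, had r = −0.43 (rho = −0.05, exact permutation p = 0.311). Without the 2 farthest libraries r was 0.76 for Cpa3 and 0.22 for Lamc1, so the negative sign for Lamc1 rested on 2 libraries. With Klk7, r was 0.15 for the entry named Klk5 and 0.55 for the one named Creb3l1 (rho 0.27 and 0.56, exact permutation p = 0.686 and 0.276). With Klk10, r was 0.40 for the entry named Klk5 and 0.34 for the one named Creb3l1 (rho 0.50 and 0.58, exact permutation p = 0.277 and 0.405). Gapdh had r = 0.69 with Tpi1 (rho = 0.59, exact permutation p = 0.1). Dpt, which stands at the Gapdh place, had r = −0.36 (rho = −0.33, exact permutation p = 0.428). Without the 2 farthest libraries r was 0.49 for Gapdh and −0.32 for Dpt. The entry named Klk5 had r = 0.66 with the mean of 6 suprabasal epidermal markers (rho = 0.67, exact permutation p = 0.0585, adjusted p = 0.205), and this rested on 2 libraries, since r was 0.28 without them. With the mean of 6 fibroblast markers its r was 0.04. The entry named Creb3l1, a transcription factor of collagen-secreting cells, had r = 0.88 with the fibroblast mean (rho = 0.73, exact permutation p = 0.0231, adjusted p = 0.108, r = 0.74 without the 2 farthest libraries) and 0.24 with the suprabasal mean. None of the 14 pairs passed at an adjusted p of 0.05, so 10 libraries do not settle which entry holds the reads of Klk5.

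The 10 genes form 1 cluster on chromosome 7 (mm10 43690418 to 43851181, 161 kb), all on the plus strand, in the order Klk14, Klk13, Klk12, Klk11, Klk10, Klk9, Klk8, Klk7, Klk6 and Klk5. The RefSeq promoter table (build GRCm38.p6; 250 bases before to 50 after a start) matched 10 of 10 genes with 12 starts. Because STAT3 is the deleted factor, both strands of these windows were searched for the STAT half-site pair TTCNNNGAA, which 8.3% of 32851 promoters hold. Among the 10 genes it was found for Klk10 alone. The GC box GGGCGG, held by 35.7% of promoters, was found for 4 genes (Klk6, Klk7, Klk8 and Klk9), and neither the AP-1 motif TGANTCA (7.81% of promoters) nor TATAAA (13.6%) was found for any. The stretches below are shown for the 2 genes that rose, Klk5 and Klk10, and for Klk7, the most abundant member. They run 5′ to 3′ on the plus strand up to the RefSeq start, without bases that the annotation counts as an exon of the gene, and capitals mark the STAT motif in Klk10 and the GC box, on the other strand, in Klk7. The Klk5 stretch lies inside the span that the GENCODE annotation gives the gene. A match describes the letters and not a bound site, and no match says nothing about binding elsewhere.
Klk10, chr7:43780804-43781034: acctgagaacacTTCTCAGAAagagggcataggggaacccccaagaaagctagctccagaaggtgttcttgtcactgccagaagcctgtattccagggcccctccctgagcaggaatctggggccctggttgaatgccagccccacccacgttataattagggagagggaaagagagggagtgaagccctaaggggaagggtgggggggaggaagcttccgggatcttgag
Klk5, chr7:43842068-43842268: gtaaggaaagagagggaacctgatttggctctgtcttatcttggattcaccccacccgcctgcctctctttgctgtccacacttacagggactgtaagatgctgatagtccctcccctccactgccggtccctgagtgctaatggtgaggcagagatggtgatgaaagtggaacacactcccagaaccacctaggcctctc
Klk7, chr7:43811044-43811293: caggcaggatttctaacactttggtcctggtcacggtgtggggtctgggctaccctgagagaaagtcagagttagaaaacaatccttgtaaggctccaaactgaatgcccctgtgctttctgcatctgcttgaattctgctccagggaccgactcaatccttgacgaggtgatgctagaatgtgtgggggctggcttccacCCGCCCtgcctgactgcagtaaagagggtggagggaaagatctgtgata

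Of the 10 kallikreins 7 passed the filter on low values. Among these 7, Klk5 and Klk10 rose, 0 fell and 5 did not pass, where 0.529% of all tested genes rose, 0.459% fell and 0.988% passed in either direction. For 3 of the 7 (Klk5, Klk10 and Klk11) every STAT3cKO library lay above every WT library, which held for 1.71% of all tested genes. Changes were positive for 7 of 7, with a median of 1.92, while all tested genes had a median of −0.16 and 43.8% of them were positive. This family median is the change of the entry named Klk5. The entry at the Klk5 place had a change of −3.71, and with it not all changes would be positive and the family median would be lower. Klk11 could pass the filter through its STAT3cKO libraries alone. Klk12, Klk13 and Klk14 were too low to test.

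Klk5 encodes the trypsin-like protease that, in human skin, starts the activation of other kallikreins. It had values of 11.84, 10.87, 10.46, 10.42 and 10.41 in STAT3cKO 1 to 5, against 7.97, 8.53, 9.32, 9.02 and 9.56 in WT 1 to 5. Every STAT3cKO library lay above every WT library, with STAT3cKO 1 highest of all. The means were 10.80 ± 0.61 in STAT3cKO and 8.88 ± 0.64 in WT (SD, n = 5 each). Klk5 rose 3.78-fold (1.92, SE 0.39, adjusted p = 0.0223 by limma, 95% interval 1.09 to 2.75). The estimated reads behind these values numbered 1316 to 2998 in STAT3cKO and 373 to 504 in WT libraries. The call was lost without STAT3cKO 1 (change 1.66, adjusted p = 0.0892), without WT 1 (1.69, 0.0729), without WT 2 (1.83, 0.0614) or without STAT3cKO 2 and WT 3 together (2.01, 0.0502). It was also lost without trend and robust moderation (adjusted p = 0.172), in the 4 deepest libraries (2.16, 0.0507), in the other 6 (1.76, 0.366) and with suprabasal centring, and over all alternatives with this entry the adjusted p ranged between 0.00195 and 0.366.

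The entry at the Klk5 place, named Creb3l1, had values of 7.83, 1.29, 0.01, 5.00 and 7.96 in STAT3cKO 1 to 5, against 7.65, 8.79, 6.46, 8.86 and 8.86 in WT 1 to 5. It ran the other way and its groups overlapped: the change was −3.71 (SE 1.64, adjusted p = 0.419 by limma, 95% interval −7.16 to −0.25). The rise of Klk5 therefore holds for the deposited symbol, and read by place the gene would have a negative change that did not pass.

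Klk7 encodes the chymotrypsin-like protease that cuts corneodesmosin and desmocollin 1. Its values were 14.83, 13.57, 14.73, 14.40 and 15.88 in STAT3cKO 1 to 5, against 13.23, 13.19, 13.89, 14.06 and 13.77 in WT 1 to 5. All but STAT3cKO 2 lay above the WT libraries. The means were 14.68 ± 0.84 in STAT3cKO and 13.63 ± 0.39 in WT (SD, n = 5 each). The change was 1.05 (SE 0.34, 95% interval 0.33 to 1.77), and it did not pass (unadjusted p = 0.00672, limma adjusted p = 0.184; 0.00787 to 0.967 over the alternatives). The change was −0.04 after centring on suprabasal markers, which moved the median of all tested genes to −1.25, and 1.49 with libraries weighted by their fit, which passed (adjusted p = 0.00787).

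Klk14, a further trypsin-like enzyme of the human stratum corneum, was at the limit of detection. It had an estimated 20 reads in STAT3cKO 5 and 1 in STAT3cKO 2, against 19 in WT 2, and none in the other 7 libraries. No difference was detectable at this depth. A region of 287 bases of its exons also belongs to 2310002F09Rik on the other strand, which had an estimated 22 reads in WT 2, and whether counting used strand is unknown from the sources at hand.

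**Figure D1:**
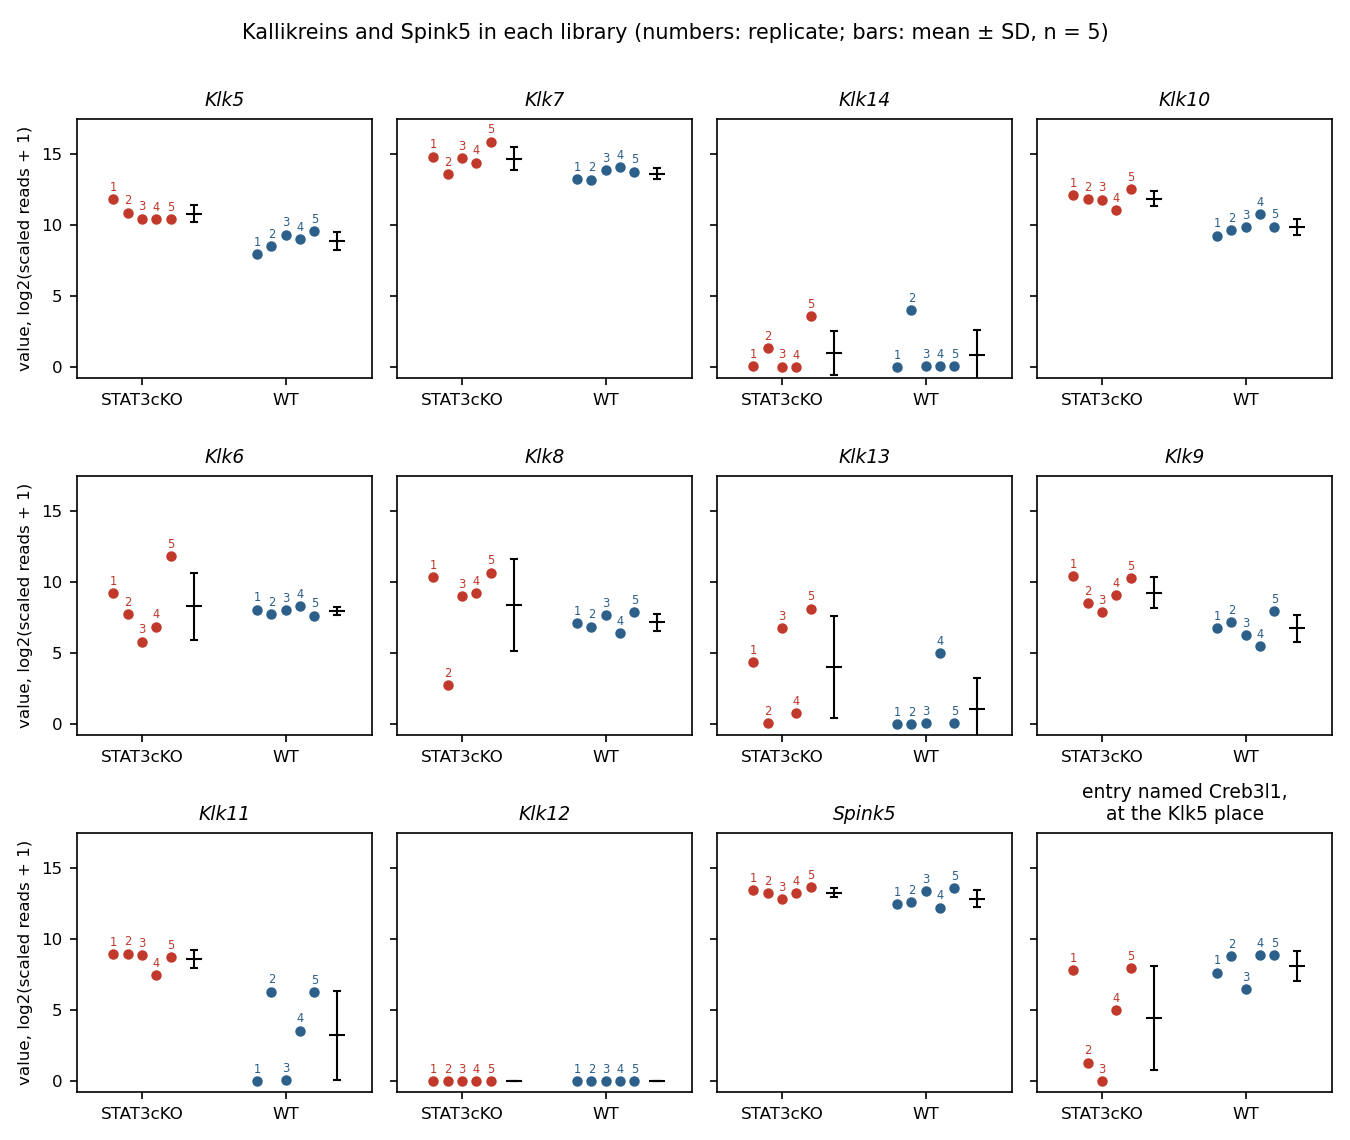
Deposited values, log2(scaled reads + 1), of the 10 kallikreins, of Spink5 and of the entry named Creb3l1 that stands at the Klk5 place, per library (numbered points), with mean ± SD (n = 5) beside each group, STAT3cKO left and WT right. Klk5, Klk10 and Klk11 have no overlap between the groups, Klk8 is low in STAT3cKO 2 (2.74), and Klk12 is at 0 in all 10 libraries.

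Klk10, a kallikrein whose loss is known from human tumours and whose skin substrates are less well described, gave the lowest p of the family. Its values were 12.10, 11.82, 11.78, 11.04 and 12.51 in STAT3cKO 1 to 5, against 9.25, 9.65, 9.83, 10.79 and 9.88 in WT 1 to 5. The groups did not overlap, though WT 4 came close to STAT3cKO 4. The means were 11.85 ± 0.54 in STAT3cKO and 9.88 ± 0.56 in WT (SD, n = 5 each). Klk10 rose 3.91-fold (1.97, SE 0.34, adjusted p = 0.00622 by limma, 95% interval 1.25 to 2.69), and the call held in all 10 fits that each left out 1 library. Without STAT3cKO 2 and WT 3 it was 1.96 (adjusted p = 0.0317). It did not pass without trend and robust moderation (adjusted p = 0.133), in the 4 deepest libraries (2.32, 0.0502), in the other 6 (1.73, 0.21) or with suprabasal centring, and over all alternatives its adjusted p ranged between 0.000852 and 0.315.

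Klk11, a trypsin-like member, had values of 8.96, 8.99, 8.88, 7.47 and 8.76 in STAT3cKO 1 to 5, against 0.00, 6.31, 0.06, 3.56 and 6.28 in WT 1 to 5. WT 1 and WT 3 had no read, while the STAT3cKO libraries had an estimated 238 to 777. The groups did not overlap, and the WT libraries spread far more than the STAT3cKO ones: the means were 8.61 ± 0.64 in STAT3cKO and 3.24 ± 3.14 in WT (SD, n = 5 each). The change of 5.37 (SE 1.58, 95% interval 2.05 to 8.69) did not pass (limma adjusted p = 0.125; 0.0255 to 0.796 over the alternatives). The exact 2-sided permutation p was 0.00794, the smallest that 252 assignments can give, and it is not adjusted. With a pseudocount of 16 in place of 1 the change was 3.50 and passed (adjusted p = 0.0324). Of the 30-base words in the last 500 bases of its transcripts, 2 are shared with Klk12.

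Klk9, a little studied chymotrypsin-like member, had values of 10.42, 8.54, 7.90, 9.07 and 10.28 in STAT3cKO 1 to 5, against 6.75, 7.20, 6.27, 5.5 and 7.96 in WT 1 to 5. Only STAT3cKO 3 lay within the WT range, just under WT 5. The change was 2.51 (SE 0.71, adjusted p = 0.112 by limma, 95% interval 1.0 to 4.01) and did not pass. It was 2.84 with library weights and passed there (adjusted p = 0.0119; 0.0119 to 0.815 over the alternatives).

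Klk8, the trypsin-like neuropsin of epidermis and brain, had values of 10.36, 2.74, 9.01, 9.22 and 10.68 in STAT3cKO 1 to 5, against 7.09, 6.87, 7.65, 6.40 and 7.87 in WT 1 to 5. STAT3cKO 2, with an estimated 4 reads, was the lowest of the 10 libraries, and the other 4 STAT3cKO libraries lay above all WT libraries. The change was 1.22 with all libraries (SE 1.21, limma adjusted p = 0.733) and 2.64 without STAT3cKO 2 (SE 0.52, adjusted p = 0.0202; 0.0202 to 0.997 over the alternatives). STAT3cKO 2 thus decides this value, and it is also the library with the most tested genes without a read. Of the Klk8 exons, 382 bases are shared with 2310002F09Rik on the other strand, which had an estimated 22 reads in WT 2, 4 in WT 3 and none elsewhere.

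Klk6, a trypsin-like protease also abundant in brain myelin, had values of 9.21, 7.75, 5.81, 6.87 and 11.84 in STAT3cKO 1 to 5, against 8.05, 7.74, 8.03, 8.33 and 7.64 in WT 1 to 5. The WT libraries lay close together, whereas the STAT3cKO libraries lay on both sides of them. The SD was 2.34 in STAT3cKO and 0.27 in WT. The change of 0.34 (SE 0.88, adjusted p = 0.91 by limma, 95% interval −1.52 to 2.19) did not pass, and it was −0.55 without STAT3cKO 5 and −0.75 after centring on suprabasal markers.

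Klk13 had an estimated 16, 0, 101, 1 and 501 reads in STAT3cKO 1 to 5, against 26 in WT 4 and none in the other 4 WT libraries. STAT3cKO 3 and 5 were above every WT library, and the groups overlapped. Its values were not tested in the fit, and the exact permutation p for them was 0.103. Markers of growing hair follicles differed between these libraries too, with a list mean of 9.32, 0.14, 12.71, 0.34 and 9.49 in STAT3cKO 1 to 5, against 0.61, 0.81, 3.94, 13.64 and 2.44 in WT 1 to 5. The libraries with 16 or more Klk13 reads were the 4 with a list mean above 9. The part of hair growth in the Klk13 values was not tested.

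Klk12 had no read in any library. A count of 0 allows up to 3 reads, which corresponds to a value of at most 1.42 to 2.38 in STAT3cKO libraries and 1.59 to 2.46 in WT libraries, for counting error only. Of the 16 other mouse kallikrein genes none passed the filter, and 13, Klk4 and Klk15 among them, had no read in any library. Klk1 had an estimated 106 reads in STAT3cKO 1 and 1 in STAT3cKO 3, against 154 in WT 3. Klk1b22 had no read in STAT3cKO, against 55 in WT 1 and 35 in WT 5, and Klk1b5 had 1 read in STAT3cKO 3.

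**Figure D2:**
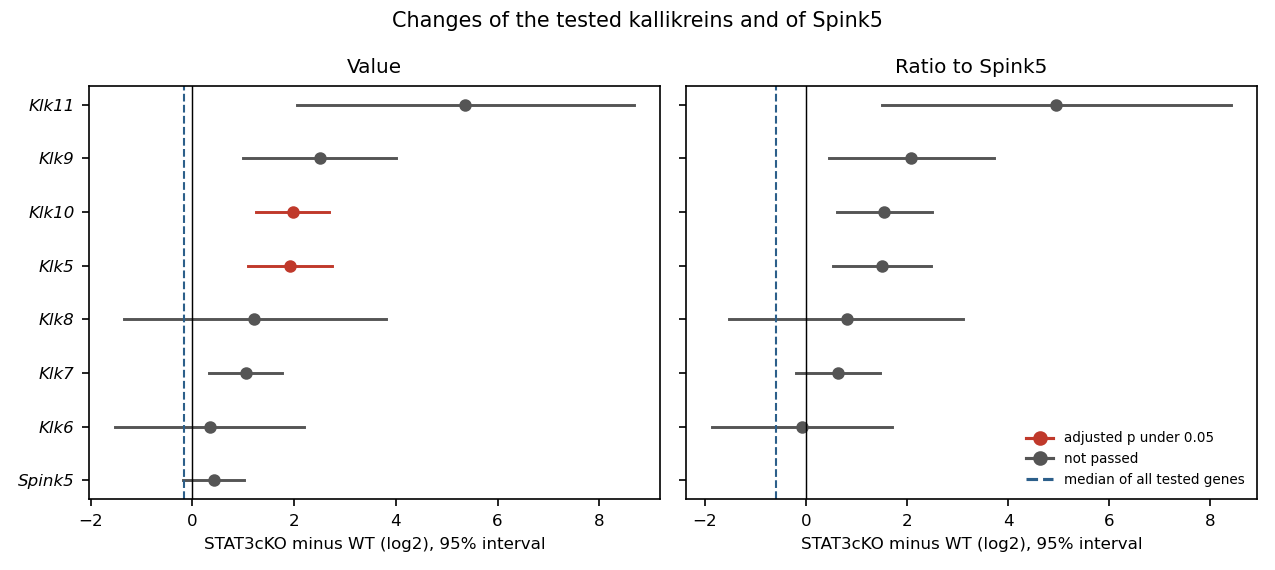
Change of the 7 tested kallikreins and of Spink5, STAT3cKO minus WT on the log2 scale (points) with 95% intervals (lines), for the value (left) and for the ratio to Spink5 (right); the dashed line marks the median of all tested genes. Klk10 (1.97) and Klk5 (1.92) pass as values, and 0 of the 7 pass as ratios.

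Spink5, the denominator of the ratios, had values of 13.44, 13.24, 12.84, 13.23 and 13.65 in STAT3cKO 1 to 5, against 12.46, 12.61, 13.41, 12.23 and 13.61 in WT 1 to 5. It did not pass (change 0.42, SE 0.29, adjusted p = 0.607 by limma, 95% interval −0.19 to 1.02), and it was −0.67 when libraries were centred on suprabasal markers, a scale on which the median of all tested genes was −1.25. In every library Klk7 transcripts outnumbered those of Spink5, and every other kallikrein stayed below it.

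As ratios to Spink5, 0 of the 7 tested kallikreins rose or fell by limma, where as ratios 0.243% of all tested genes rose, 0.902% fell and 1.14% passed in either direction. Of the 7, 4 had an unadjusted p under 0.05, as had 1348 of all 11535 tested genes. Klk5 amounted to 32.9, 19.3, 19.2, 14.2 and 10.6% of Spink5 in STAT3cKO 1 to 5, against 4.42, 5.92, 5.88, 10.7 and 6.05% in WT 1 to 5. STAT3cKO 5 lay just under WT 4, and the other 4 STAT3cKO libraries lay above all WT libraries. The difference in log2 ratio was 1.5 (SE 0.48, adjusted p = 0.152 by limma, 95% interval 0.53 to 2.48, exact 2-sided permutation p = 0.0159, not adjusted). The interval of the ratio stays above 0, but the change does not pass among 11535 ratios. The ratio of the entry at the Klk5 place, named Creb3l1, ran the other way (log2 means −8.86 in STAT3cKO and −4.74 in WT, change −4.13, SE 1.67, limma adjusted p = 0.317).

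Klk10 amounted to 39.3, 37.3, 47.8, 22.0 and 45.3% of Spink5 in STAT3cKO 1 to 5, against 10.8, 12.9, 8.37, 36.7 and 7.55% in WT 1 to 5. WT 4 stood apart from its group, at the level of the STAT3cKO libraries. The change of the log2 ratio was 1.55 (SE 0.46, adjusted p = 0.114 by limma, 95% interval 0.61 to 2.50). Without WT 4 it was 1.93 and passed (adjusted p = 0.0159; 0.00637 to 0.775 over the alternatives). WT 4 had the lowest Spink5 and the highest Klk10 value of the WT libraries. It also had the highest mean of growing hair follicle markers in WT (13.64). In STAT3cKO 1 to 5 that mean was 9.32, 0.14, 12.71, 0.34 and 9.49. The part of hair growth in the ratio was not tested.

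The ratio of Klk7 was 261, 125, 371, 225 and 471% of Spink5 in STAT3cKO 1 to 5, against 171, 150, 139, 355 and 112% in WT 1 to 5. These overlapped widely (change 0.64, SE 0.40, limma adjusted p = 0.536). The ratios of Klk9 and Klk11 did not overlap between the groups, 2 of the 7 tested members, where 0.564% of all tested genes had higher ratios without overlap. Klk9 was at 3.24 to 12.3% of Spink5 in STAT3cKO and 0.699 to 2.34% in WT (change 2.09, SE 0.80, limma adjusted p = 0.285). Klk11 was at 1.84 to 6.38% in STAT3cKO and 0 to 1.26% in WT (change 4.95, SE 1.69, limma adjusted p = 0.202). The log2 ratio of Klk8 had a difference of 0.81 (SE 1.13, adjusted p = 0.799) and that of Klk6 one of −0.08 (SE 0.87, adjusted p = 0.98).

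**Figure D3:**
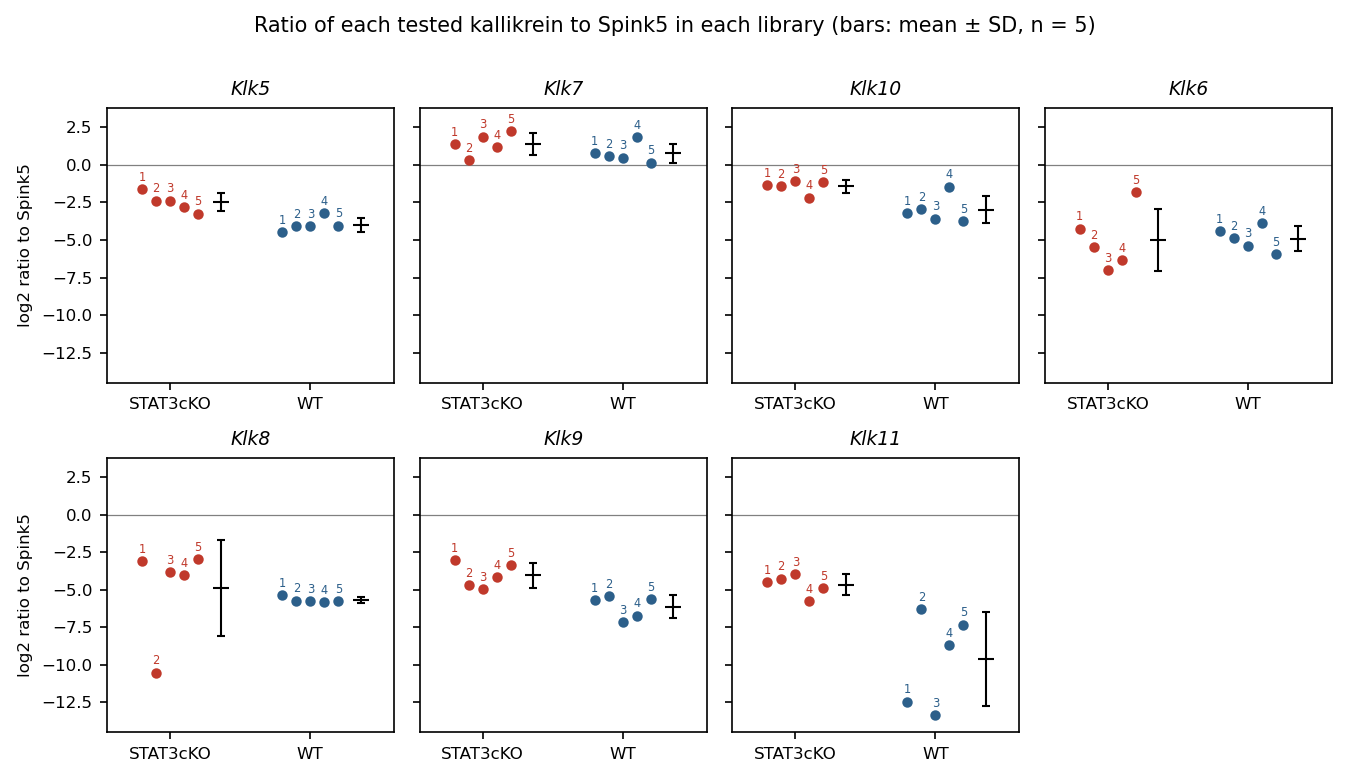
Log2 ratio of each tested kallikrein to Spink5 per library (numbered points), with mean ± SD (n = 5), STAT3cKO left and WT right; the grey line at 0 marks equality with Spink5. Klk7 lies above the line in all 10 libraries, Klk9 and Klk11 have no overlap between the groups, and WT 4 is the highest WT library for Klk5, Klk7, Klk10 and Klk6.

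The order of levels began alike in both genotypes. Klk7 exceeded Klk10, and Klk10 exceeded Klk5, in 5 of 5 STAT3cKO and 5 of 5 WT libraries. Below them the order differed and neighbours were often exchanged between libraries. In STAT3cKO the next were Klk9, Klk11, Klk8 and Klk6 with means of 9.24, 8.61, 8.40 and 8.30, and Klk9 exceeded Klk11 in 3 of 5 libraries. Klk11 exceeded Klk8 in 1 of 5, STAT3cKO 2, so their order by mean rests on the low Klk8 value of that library. In WT they were Klk6, Klk8, Klk9 and Klk11 with means of 7.96, 7.18, 6.74 and 3.24, and Klk8 exceeded Klk9 in 3 of 5 libraries.

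The 10 genes together gave 0.178 to 0.717% of the unlogged total in STAT3cKO libraries and 0.0979 to 0.175% in WT libraries. With the deposited symbols the groups did not overlap, by a narrow margin between STAT3cKO 2 (0.178%) and WT 4 (0.175%). The entry named Klk5 made up 10% of the family in STAT3cKO 2. The entry at the Klk5 place had values of 1.29 in STAT3cKO 2 and 8.86 in WT 4. Counted as Klk5, it would make these percentages overlap. Divided by Spink5, the summed family was 3.67, 1.93, 4.57, 2.76 and 5.84 in STAT3cKO 1 to 5, against 1.95, 1.78, 1.58, 4.12 and 1.32 in WT 1 to 5, and the groups overlapped. Klk7 made up 64.8 to 81.5% of the family in STAT3cKO and 84.3 to 87.9% in WT. With the deposited symbols, the share of Klk7 was thus lower in every STAT3cKO library than in any WT library. This also rests on the entry named Klk5. The entry at the Klk5 place had values of 0.01 in STAT3cKO 3 and 5.00 in STAT3cKO 4, against 8.79 in WT 2. Counted as Klk5, it would make the shares of Klk7 overlap. Klk10 made up 7.8 to 19.3% in STAT3cKO and 5.3 to 8.9% in WT, and Klk5 1.8 to 10% in STAT3cKO and 2.3 to 4.6% in WT. These sums and shares are descriptions without a test.

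**Figure D4:**
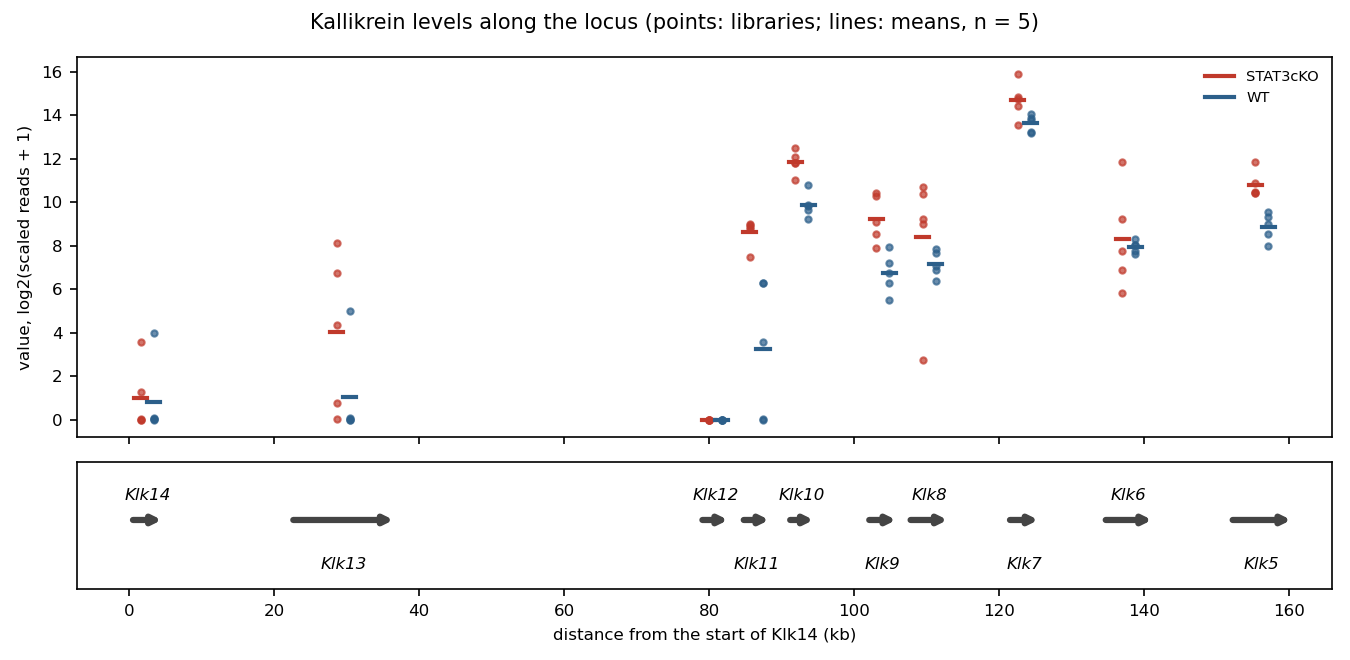
Deposited values of the 10 kallikreins (points: libraries; horizontal lines: means of 5) placed by the distance of each gene in kb from the start of Klk14, with STAT3cKO left of WT at each gene; arrows below show extent and strand. The 3 genes on the Klk14 side, Klk14, Klk13 and Klk12, have means of at most 4.02, whereas Klk11 to Klk5, which start between 84.2 and 151.6 kb, are the 7 tested members; Klk5 is drawn under its deposited symbol.

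Over deviations from the group means, the 21 pairs of tested members had a Pearson r of −0.05 to 0.75 with a median of 0.29, and none passed after adjustment over the 21 pairs (lowest adjusted p = 0.589). Klk7 and Klk10 had r = 0.63 (Spearman rho = 0.70, exact within-group permutation p = 0.0559, adjusted over the 21 pairs 0.589, r = 0.83 without the 2 farthest libraries). Klk7 and Klk8 had r = 0.75 (rho = 0.50, exact permutation p = 0.0792, adjusted 0.589), which rested on 2 libraries, since r was 0.09 without them. Klk5 had r = 0.40 with Klk10 and 0.15 with Klk7.

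Among the genes outside the family whose values were most like those of Klk5 over the 10 libraries, of 11529 compared, were Il1f5, Agpat5, Hebp2 and Dsg1a, with Pearson r of 0.95, 0.93, 0.93 and 0.93. They were picked for this likeness, so no test is given. Il1f5, the interleukin 36 receptor antagonist of the epidermis, averaged 10.34 in STAT3cKO and 8.08 in WT. Hebp2, a heme-binding protein, averaged 11.23 in STAT3cKO and 10.15 in WT. Within the groups, r with Klk5 was 0.79 for Il1f5, 0.86 for Agpat5, 0.79 for Hebp2 and 0.72 for Dsg1a. Dsg1a is itself one of the entries out of genome order.

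Genes around the kallikreins were read from lists for inhibitors, activating proteases, substrates and receptors. Of 5 tested inhibitors 0 passed and the median change was −0.79, against −0.16 for all tested genes. Spink5 is among the 5 and alone had a positive change (0.42). Pzp, also among them, had a read in 5 libraries only (change −0.81, SE 2.33). Serpinb6a, an intracellular serpin, had the lowest p (10.96 ± 0.36 in STAT3cKO and 11.80 ± 0.61 in WT, SD, n = 5 each; change −0.84, SE 0.32, limma adjusted p = 0.311). Serping1, the C1 inhibitor, had a change of −0.66 (adjusted p = 0.582). Slpi, which inhibits KLK7 in human skin, was too low to test, with values of 4.98 ± 3.54 in STAT3cKO and 0.26 ± 0.50 in WT (SD, n = 5 each).

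Of 5 tested activating proteases 0 passed, with a median of −0.47. Plat, the tissue plasminogen activator, had a change of −1.34 (adjusted p = 0.715), and Prss8, the membrane protease prostasin, one of −0.47 (adjusted p = 0.789). Matriptase, encoded by St14 and an activator of kallikreins in the Netherton model mouse, had a change of −0.55 (SE 1.62, adjusted p = 0.922). The level of these transcripts was thus not shown to differ, and the intervals are wide.

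Of 7 tested substrates 0 passed. Changes were positive for 7 of 7 with a median of 0.96, where 43.8% of all tested genes were positive and their median was −0.16. Positive changes were also seen for 6 of 6 basal and 7 of 8 suprabasal epidermal markers. Dsg1a, a desmosomal cadherin that kallikreins cut, averaged 12.10 ± 0.24 in STAT3cKO and 11.03 ± 0.43 in WT (SD, n = 5 each; change 1.07, SE 0.28, limma adjusted p = 0.0746). Dsc1, the desmocollin that KLK7 cuts, averaged 10.91 ± 0.30 in STAT3cKO and 9.25 ± 1.22 in WT (change 1.67, SE 0.47, adjusted p = 0.108). Cdsn, corneodesmosin, had a change of 0.29 (SE 0.40, adjusted p = 0.812).

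Of 3 tested receptors and downstream genes 0 passed. F2rl1, the protease-activated receptor that KLK5 cleaves, averaged 9.04 ± 0.44 in STAT3cKO and 5.79 ± 3.28 in WT (SD, n = 5 each), with a read in 9 of the 10 libraries. The change of 3.26 (SE 1.27, limma adjusted p = 0.334) did not pass. F2r, the thrombin receptor, had a change of 1.08 (adjusted p = 0.739). Dsg1a and F2rl1 are among the entries out of genome order.

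Markers of the epidermal layers that make kallikreins are given beside them. The mean of 8 suprabasal markers was 13.40, 11.78, 12.78, 13.04 and 12.30 in STAT3cKO 1 to 5, against 11.08, 11.05, 12.07, 11 and 12.65 in WT 1 to 5. Of the 8, 7 had a positive change, 0 passed, and the median was 0.88. Lor, the cornified envelope protein loricrin, had a change of 1.96 (adjusted p = 0.0618) and Krt10, the suprabasal keratin, one of 1.48 (adjusted p = 0.1), and both stand out of genome order. The lowest adjusted p of the list, 0.054, belonged to Krt1, with a change of 3.44. The 9 adipocyte markers had an overlapping list mean of 8.71 to 12.37 in STAT3cKO and 11.73 to 14.12 in WT. Of the 9, Car3 alone fell (−3.06, adjusted p = 0.0209), and 8 did not pass. The change was positive for 0 of the 9, and the median was −2.45. Their 2 most abundant genes, Fabp4 and Cfd, had changes of −2.26 and −2.45 (adjusted p = 0.0927 and 0.24). Of 7 sebaceous gland markers, Soat1 and Elovl3 rose (3.10 and 4.31) and 5 did not pass, among them Fasn (−1.54), Awat2 (−2.78) and Mgst1 (−0.01); 4 of the 7 changes were positive and their median was 0.04. Of 7 fibroblast markers Dpt, out of genome order, fell (−1.53), and no marker of basal epidermis, growing hair follicle, muscle, macrophages, mast cells or T cells was called. Changes were positive for 0 of 8 muscle markers (median −1.52), 0 of 7 macrophage markers (−0.57) and 0 of 2 tested T cell markers (−2.35). They were positive for 6 of 6 basal (0.33), 8 of 9 tested hair follicle (2.16), 3 of 7 fibroblast (−0.89) and 3 of 5 mast cell markers (0.30). An alternative chosen after seeing the data had the mean of the growing hair follicle list as a term in the fit. In it the change was 1.81 for Klk10 (adjusted p = 0.00246 by limma) and 1.87 for Klk5 (adjusted p = 0.0234), and both passed. As ratios to Spink5, 0 of the 7 tested members passed with this term. A term in a fit of so few libraries is no test of hair growth. The part of this and of the other lists in the kallikrein values was not tested. Nor was that of the suprabasal list, since centring on it, given below, lowered the change of every gene alike.

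When each library was centred on its suprabasal mean, Klk5 had a change of 0.83 (SE 0.61, limma adjusted p = 0.364) and Klk10 one of 0.88 (SE 0.58, adjusted p = 0.315), and neither passed. The 8 markers of that mean include Lor and Krt10, which stand out of genome order. They also include Krt77, with a read in 8 libraries and an SD of 3.45 in STAT3cKO, and its part in these SEs was not tested. This centring lowered the change of every gene alike, and the median of all tested genes lay at −1.25 in place of −0.16. By that common shift the small positive changes of Klk7, Klk6 and Spink5 became −0.04, −0.75 and −0.67, which says nothing particular to these genes. In this centring 0 of the 7 members rose, where 0.113% of all tested genes did.

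**Figure D5:**
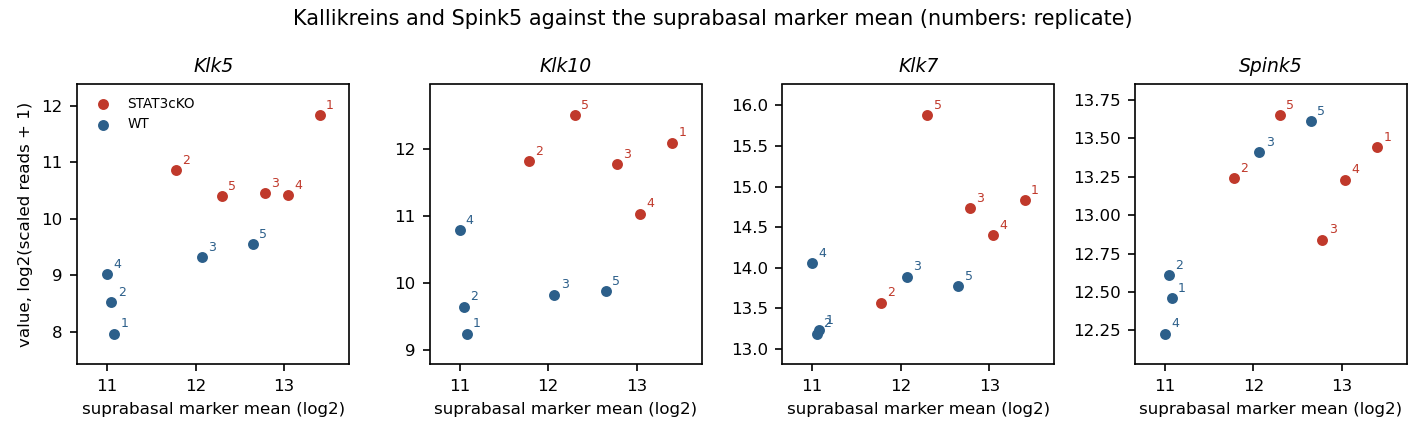
Deposited values of Klk5, Klk10, Klk7 and Spink5 against the mean of the 8 suprabasal markers in the same library, both on the log2 scale, with numbered points for STAT3cKO (red) and WT (blue). STAT3cKO libraries lie at marker means of 11.78 to 13.40 and WT libraries at 11 to 12.65, so these ranges overlap. For Klk5 and Klk10 every STAT3cKO library lies above every WT library, whatever its marker mean. The part of the marker mean in these values was not tested.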

How the data were processed

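RNA of whole skin was extracted with Trizol and made into Lexogen QuantSeq 3′ libraries, per the labels' protocols. Bowtie2, bedtools and the build mm10 are named, without roles, in the submitters' processing notes; their versions, the annotation, strand use and scaling are unknown from the sources at hand. The authors deposited 1 table per library without a unit. The deposited values behave as log2 of scaled reads plus 1: unlogged, low values (up to 20 reads) lay within 0.15 of whole multiples of 1 read in 76.6 to 100% of cases. From that step depth was estimated, and values worth under 0.5 of a read count as no read. Depth and floors describe counting error only.

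Genotype was the single term of the limma fit (limma 3.58.1, R 4.3.3), with mean trend and robust moderation. Ratios were fitted after subtracting the Spink5 value from each tested gene. Called means an adjusted p under 0.05. Intervals are at 95%. Single values were also tested by exact 2-sided permutation over 252 assignments. The steps were tested on simulated data. Gene positions come from GENCODE mouse release 21 of the M series, promoters from RefSeq.

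The members and gene lists were chosen with earlier results of these data known. Named genes are all members and Spink5, the 5 genes most like Klk5 (1 of them is not reported here), called genes and the 2 of lowest p per pathway list, and the 2 most abundant of each marker list used. St14, Cdsn, Slpi, Krt1, Car3, Soat1, Elovl3, Fasn, Awat2, Mgst1 and the other kallikreins are named outside this rule, as are Stat3 and the entries of the label check, chosen after their values were seen. Replicate numbers did not pair the libraries. Figures were drawn with matplotlib in Python. Alternatives covered scaling, filters, pseudocount, moderation, library weights, depth and each library left out.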

Additional observations from a re-analysis of the deposited data

Results flagged for a closer look

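Among the 11 genes, a library stood far from the other 4 of its group in these cases. Chance flags about 1 in 20 groups of normally distributed values. That rate does not apply to Klk13 and Klk14 in WT, where 1 library had a read, so that their flags follow from the floor. The value and the ratio of a gene are not independent cases. In STAT3cKO 2, Klk8 had a value of 2.74, against 9.01 in the nearest other STAT3cKO library, and its log2 ratio to Spink5 was −10.51. STAT3cKO 2 is also the library that lacked reads for the most tested genes, 2617, and the part of this in the Klk8 value was not tested. In STAT3cKO 4, Klk11 had a value of 7.47, against 8.76 in the nearest other. In WT 1 the log2 ratio of Klk8 to Spink5 was −5.37, where the other 4 WT libraries lay between −5.83 and −5.73, a difference that is small in size. In WT 4, Klk13 had a value of 5.00 and a log2 ratio of −7.23, against at most 0.08 as a value in the other 4 WT libraries. WT 4 was the WT library with the highest mean of growing hair follicle markers, 13.64. In WT 2, Klk14 had a value of 4.01 and a log2 ratio of −8.60, on an estimated 19 reads, and 2310002F09Rik on the other strand had 22.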

How the results depend on the processing

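Klk10 kept its call whichever of the 10 libraries was left out, and Klk5 in 7 of these 10 fits. Of the 7 members, 1 to 3 rose in those fits, 1 with a replicate block, 5 with library weights (where 1.75% of all genes rose), 1 when the entry at the Klk5 place was read as Klk5 (chosen after seeing the data), and 0 with suprabasal centring, without trend and robust moderation, in the 4 deepest libraries or in the other 6. As ratios to Spink5, 0 to 1 rose in the fits without 1 library and 4 with library weights (1.22% of all genes). Read at its place, Klk5 had a change of −3.71 and its ratio one of −4.13. The change of Spink5 was 0.26 to 0.60 without 1 library and −0.67 with suprabasal centring. The change of Klk6 was −0.75 with that centring, −0.41 in the other 6 libraries and −0.55 to 0.96 without 1 library; its ratio was 0.34 with library weights, 0.55 in the deepest 4 and −0.87 to 0.43 without 1 library. The change of Klk7 was −0.04 with suprabasal centring, and that of the ratio of Klk8 −0.03 in the other 6 libraries. The cause of these shifts was not tested.

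Over all genes, the numbers that rose and fell were 61 and 53. They were 34 and 32 with the replicate block, 98 and 83 with quantile normalization, 13 and 554 with suprabasal centring, 13 and 31 without trend and robust moderation, 202 and 173 with library weights and 12 and 4 in the other 6 libraries. In the deepest 4 libraries 92 fell, with a pseudocount of 16 85 fell, and without 1 library 29 to 96 rose and 24 to 111 fell. The pathway lists held 0 called genes, and 1 with quantile normalization, 1 with suprabasal centring, 2 with library weights, 1 in the deepest 4 libraries and 0 to 2 without 1 library. Same-numbered libraries did not vary together (r between −0.155 and 0.016), so the block pairs libraries only by number; with it Klk5 had an adjusted p of 0.0964. Klk12 and Klk14 lie at the limit that depth sets.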
